A study of Mus musculus with 16 samples.

Results

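Wild-type CD8 T cells were compared before and after they left the thymus, as single-positive (SP) CD8 thymocytes and as lymph node (LN) CD8 T cells, by the sequences of their TCR α-chains. The comparison was made up of the libraries whose titles name wild-type Themis and no Vα3.2 sort, which gave 4 of the 16 libraries of the series. They were LN 1 and LN 2 against thymus 1 and thymus 2, with 2 libraries per tissue. Cells of both tissues came from C57BL/6 mice of the genotype Themis+/+Foxp3-GFP, so the thymic and the LN libraries alike carried the Foxp3-GFP reporter, and no age is given in the sources used here. The labels call the cells TCRab+ CD8 T cells. The study describes LN of several mice pooled before the sort, while the series design assigns each library to its own mouse, so p-values below measure only the spread between these samples. Total RNA from like numbers of sorted cells was reverse transcribed with template switching and amplified from the TCR constant region (5' RACE), which avoids a separate primer for each V segment.

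The α-chain of the TCR is assembled in the thymus when a V segment (TRAV) is joined to a J segment (TRAJ). The joint forms the CDR3, the loop that lies over the peptide in the groove of an MHC molecule. Bases are trimmed from the segment ends before joining, and terminal deoxynucleotidyl transferase can add bases that no segment encodes, called N bases here. The mouse α locus holds many V segments, several of them in copies named with D or N, and a long array of J segments. Rearrangement can be repeated on an allele, starting near the facing ends of the V and J arrays and moving outwards, until a thymocyte is positively selected or dies. Cells that pass selection leave for the periphery, where survival and division can change the share of a clone.

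The libraries held 125483 reads (LN 1), 57455 (LN 2), 124857 (thymus 1) and 98460 (thymus 2), over 12607, 5753, 16670 and 9457 distinct CDR3 nucleotide sequences in the same order. LN 2 was the shallowest library and held the fewest sequences. A single read supported 18.04% to 21.2% of a library's sequences, which together took 1.73% to 2.83% of its reads. No molecular identifiers are described, so reads of a sequence are not independent molecules, and a limit from counts covers counting error only. The tables count reads of TCRα mRNA, so more cells of a clone and more TCRα mRNA per cell cannot be told apart. They hold no other transcript, so the CD8 label could not be checked with markers. Joints of the V and J segments used by invariant chains of other T cells were counted instead. TRAV11 joined to TRAJ18, the segments of the NKT cell chain, took 16, 24, 69 and 114 reads (LN 1, LN 2, thymus 1, thymus 2), of which 16, 0, 66 and 100 had the 45 bp of the invariant CDR3. TRAV1 joined to TRAJ33, the segments of the MAIT cell chain, took 50, 2, 39 and 5 reads, of which 1, 2, 26 and 0 had its 36 bp. Segments and length do not by themselves identify an invariant chain, so these are upper counts. Both kinds were rare in each library, and reads of the NKT length were fewer in both LN libraries.

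The most abundant CDR3 found in all 4 libraries is shown first because it needs no N base. It is the whole end of TRAV14 followed directly by the whole start of TRAJ22. GRCm38 places TRAJ22 at chr14:54197248-54197307 and TRAV14-1 at chr14:53554022-53554558, both on the plus strand and annotated as TCR gene segments. The last 13 bases of TRAV14, from the codon of the conserved cysteine, and the first 29 bases of TRAJ22 add up to the 42 bp of the CDR3, so its lines below have no base in capitals except where a base differs from the germline.
TRAV14-1 end: tgtgcagcaagtg
TRAJ22 start: catcttctggcagctggcaactcatcttt
TRAV14-TRAJ22 CDR3: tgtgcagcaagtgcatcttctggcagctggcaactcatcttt
TRAV14-TRAJ22 CDR3 with T38G: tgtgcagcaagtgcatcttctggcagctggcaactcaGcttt

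The germline form had 657 reads in LN 1, 233 in LN 2, 496 in thymus 1 and 303 in thymus 2, which was 0.524%, 0.406%, 0.397% and 0.308% of reads. It ranked 2, 5, 1 and 2 by size within those libraries, and both LN libraries lay above both thymic ones. The tables called its V segment TRAV14-1 in LN 1 and thymus 2 and TRAV14-2 in LN 2 and thymus 1, although the 42 bases were the same. The form with T38G, in which position 38 counted from 1 at the 5' end of the CDR3 differs from germline TRAJ22, followed with 312, 115, 181 and 130 reads.

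That base change was part of a pattern near the J end that ran through each library. Over the last 12 bases of the CDR3, which J encodes, 32.8 (LN 1), 31.8 (LN 2), 30.8 (thymus 1) and 29.6 (thymus 2) germline T bases per 100 reads were read as G. Those made up most of the 37.6, 36.7, 35.6 and 34.6 differences of any kind per 100 reads. Both LN libraries lay above both thymic ones, and the cause of the changes was not tested. A germline J end was present in 67.4%, 68.2%, 68.9% and 69.8% of reads but in only 47.5% to 49.9% of the distinct sequences of a library. After the last 12 bases were read as the germline J and identical sequences merged, 6997 (LN 1), 3253 (LN 2), 10043 (thymus 1) and 5537 (thymus 2) distinct sequences remained. Counts of distinct sequences and clonotypes elsewhere in the text are without this merging unless stated.

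V segment use was compared first, to see which segments gained or lost share between SP thymocytes and LN. V segments were merged with their D and N copies, since their CDR3 ends often cannot be told apart, and a group was tested where 2 or more libraries held 10 or more reads of it. Merging did not remove all ambiguity of the V call. Of 2240 CDR3 nucleotide sequences found in 2 or more libraries, 942 (42.1%) had different V groups in different libraries. Such calls can move reads between V groups, families and V-J pairs, and their part in the differences below was not tested. In the edgeR quasi-likelihood test with Benjamini-Hochberg adjustment, 0 of 52 groups passed an adjusted p of 0.05 (0%), 1 had an unadjusted p under 0.05, and DESeq2 called 0. Both LN libraries lay above both thymic ones for 11 groups (21.2%) and below them for 9 (17.3%). The same V groups dominated both tissues. TRAV12-2 held 8.42% (LN 1), 10.1% (LN 2), 8.32% (thymus 1) and 8.31% (thymus 2) of reads. TRAV3-3 held 8.88%, 9.03%, 7.30% and 7.57%, with both LN libraries above the thymus. Its log2 fold change was 0.23 (SE 0.088, unadjusted p = 0.0286), and its edgeR quasi-likelihood adjusted p was 0.877 after Benjamini-Hochberg adjustment, the same as for each other V group named here. TRAV3-3 was the group with the unadjusted p under 0.05. TRAV12-3 (6.73%, 7.57%, 8.36% and 6.57%) overlapped between tissues. TRAV6-6 (6.41%, 6.63%, 5.91% and 5.44%) and TRAV6-7 (6.66%, 5.90%, 5.51% and 5.83%) lay higher in both LN libraries.

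Leaving out a library changed which V groups passed. Without LN 1, TRAV12-2 (edgeR adjusted p = 0.000133) and TRAV3-3 (edgeR adjusted p = 0.000952) were called as higher in LN. Without LN 2, TRAV3-3 was again called higher and TRAV7-5 lower, both at an edgeR adjusted p of 0.0473. Each of these fits left 1 LN library, whose spread was taken to be that of the thymic libraries. Leaving out thymus 1 or thymus 2 gave 0 calls.

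**Figure D1:**
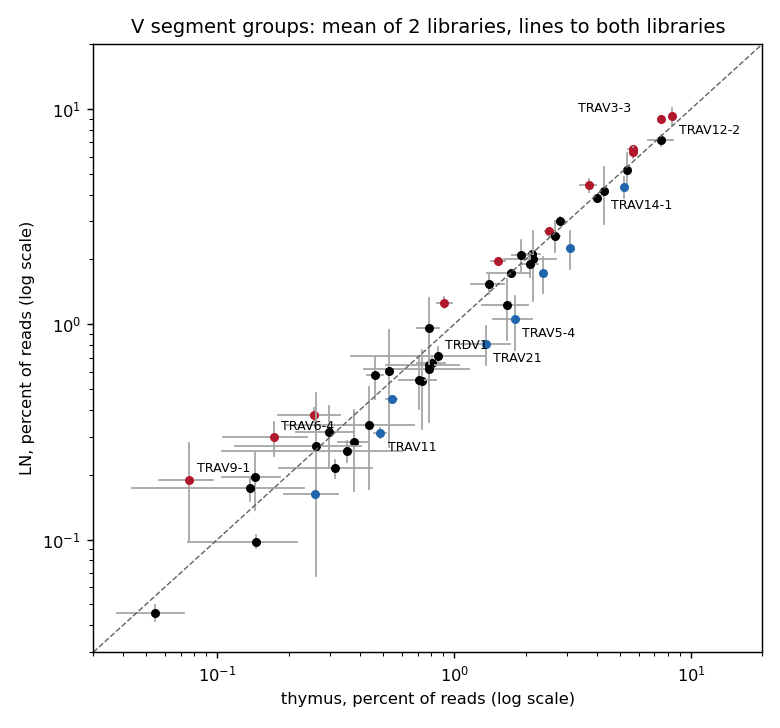
Each point is a V segment group, with its mean percent of reads over the 2 thymic libraries (x axis, log scale) and over the 2 LN libraries (y axis, log scale), and lines to the values of both libraries. Red points mark groups with both LN libraries above both thymic ones, blue points the reverse, black points overlap, and TRAV18 is left out because LN 2 held 0 reads of it. Groups of several percent of reads lie near the dashed line of equal share, with TRAV3-3 at 8.96% of LN and 7.43% of thymic reads.

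Among groups whose tissues did not overlap, the largest differences were in segments of low share. TRAV9-1 had the largest one upwards, with 0.0988% (LN 1), 0.280% (LN 2), 0.0569% (thymus 1) and 0.0955% (thymus 2) of reads and a log2 fold change of 1.27 (SE 0.92), a value that rests largely on LN 2. It was followed by TRAV6-4 (log2 fold change 0.76), TRDV2-1 (0.53), TRAV7-6 (0.43) and TRAV19 (0.32). TRAV19 had the narrowest spread of them, with 1.93% and 1.99% in LN and 1.43% and 1.64% in thymus. Downwards, TRAV18 had 17, 0, 32 and 14 reads, too few for a fold. TRAV5-4 held 1.35%, 0.762%, 1.46% and 2.14% of reads (log2 fold change -0.80, SE 0.40). TRAV21, near the end of the V array that faces J, held 0.976%, 0.649%, 1.01% and 1.72% (log2 fold change -0.78). TRAV6-1 (log2 fold change -0.70) and TRAV11 (-0.68) completed the list, and TRAV11 is the V segment of the NKT chain. In TRAV11, reads joined to TRAJ18 were 3.88%, 14.0%, 12.04% and 22.4% of the segment's reads, so most TRAV11 reads carried other J segments.

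These differences in reads were mostly not found in numbers of distinct sequences. Counted by sequences, the log2 fold change was -0.17 for TRAV9-1, -0.014 for TRAV6-4 and -0.043 for TRDV2-1, and it was -0.034 for TRAV21, -0.22 for TRAV5-4, -0.078 for TRAV6-1 and -0.14 for TRAV11. TRAV7-6 (0.54) and TRAV19 (0.50) kept theirs. A single library also moved several of the values by reads. Without thymus 1, the log2 fold change was 0.29 for TRAV6-4, 0.16 for TRDV2-1 and -0.26 for TRAV6-1. Without thymus 2 it was -0.26 for TRAV21 and -0.41 for TRAV5-4, and without LN 2 it was 0.35 for TRAV9-1.

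Summed by family, TRAV6, TRAV3, TRAV9, TRAV10, TRAV19 and TRDV2 lay higher in both LN libraries. TRAV6 (Vα4) held 14.8% (LN 1), 14.4% (LN 2), 13.3% (thymus 1) and 13.1% (thymus 2), and TRAV3 held 9.81%, 10.5%, 9.18% and 8.67%. TRAV9 (Vα3) lay higher by less, with 2.41%, 2.19%, 2.15% and 2.09%. TRAV12 (Vα8), the largest family, held 18.1%, 20.9%, 19.3% and 17.8%, and its tissues overlapped. TRAV14 (Vα2) overlapped as well, at 11.8%, 8.71%, 11.3% and 11.5%, with LN 2 the lowest. TRAV5 was the only family of over 1% of reads in each library that lay lower in both LN libraries, with 1.52%, 1.16%, 1.78% and 2.57%. TRDV segments, which also serve the δ-chain, together held 1.25%, 1.33%, 0.653% and 1.86% of reads in 173, 77, 146 and 203 sequences, and their tissues overlapped, while TRDV2 alone held 0.603%, 0.547%, 0.285% and 0.515%. For no single comparison of 2 libraries with 2 could an exact permutation test give a p below 0.333.

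No J segment passed the test between tissues. The edgeR quasi-likelihood test with Benjamini-Hochberg adjustment called 0 of 44 J segments (0%), 0 had an unadjusted p under 0.05, and DESeq2 called 0. Both LN libraries lay above both thymic ones for 5 J segments (11.4%) and below them for 4 (9.09%). TRAJ22 was the most used J segment in each library, at 8.48% (LN 1), 7.76% (LN 2), 8.11% (thymus 1) and 8.29% (thymus 2) of reads. TRAJ26 (6.06%, 4.60%, 5.47% and 6.15%) and TRAJ31 (5.07%, 4.38%, 4.81% and 4.59%) overlapped between tissues. TRAJ30 (5.56%, 5.39%, 4.96% and 4.23%) and TRAJ23 (4.24%, 4.61%, 4.19% and 3.19%) lay higher in both LN libraries, although the gap between LN 1 and thymus 1 for TRAJ23 was small.

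The largest difference upwards among J segments was in TRAJ28, with 1.27% (LN 1), 1.19% (LN 2), 0.635% (thymus 1) and 0.490% (thymus 2) of reads and a log2 fold change of 1.09 (SE 0.64). Its unadjusted p was 0.0940 and its edgeR quasi-likelihood adjusted p 0.950 after Benjamini-Hochberg adjustment, as for the other J segments named except TRAJ31, at 0.986. TRAJ38 (log2 fold change 0.44), TRAJ34 (0.24), TRAJ23 (0.22) and TRAJ30 (0.22) were the others higher in LN. TRAJ2, near the far end of the J array, had the largest difference downwards, with 0.198%, 0.338%, 0.746% and 0.455% and a log2 fold change of -1.21 (SE 0.80). TRAJ5 (log2 fold change -0.61), TRAJ18 (-0.46) and TRAJ43 (-0.46) were the others lower in LN. Counted by distinct sequences, the log2 fold change was 0.65 for TRAJ28, 0.49 for TRAJ38, 0.21 for TRAJ30, 0.073 for TRAJ23 and 0.016 for TRAJ34. It was -0.66 for TRAJ2, -0.74 for TRAJ5, -0.65 for TRAJ18 and -0.17 for TRAJ43. TRAJ2 had 18, 26, 124 and 11 sequences, most of them in thymus 1. By reads, the log2 fold change of TRAJ23 was 0.053 without thymus 2, and that of TRAJ5 was -0.12 without LN 1.

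When J segments were summed by number along the array, from TRAJ61 at the end nearest the V segments to TRAJ1 at the end nearest the constant region, the libraries fell into pairs that crossed the tissues. TRAJ61 to TRAJ48 took 16.4% (LN 1), 13.7% (LN 2), 13.0% (thymus 1) and 20.9% (thymus 2) of reads, and TRAJ47 to TRAJ36 took 21.2%, 18.5%, 16.02% and 21.9%. At the far end, TRAJ18 to TRAJ10 took 10.05%, 16.02%, 16.4% and 10.1%, and TRAJ9 to TRAJ1 took 4.89%, 8.52%, 10.6% and 4.62%. LN 1 and thymus 2 were thus alike in using more V-proximal J segments, and LN 2 and thymus 1 in using more distal ones. Across the 44 J segments, the difference between LN 1 and LN 2 had a Pearson r of -0.38 with the difference between thymus 1 and thymus 2, given as a description. Labels name no batch that pairs the libraries in this way, and its cause was not tested. In the middle of the array, TRAJ35 to TRAJ29 was higher in both LN libraries, at 20.5%, 18.2%, 17.8% and 17.2%, and TRAJ28 to TRAJ19 stayed between 25.1% and 26.9% in each library. As a share of distinct sequences, TRAJ35 to TRAJ29 took 22.3%, 20.1%, 19.3% and 21.2%, and its tissues overlapped.

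**Figure D2:**
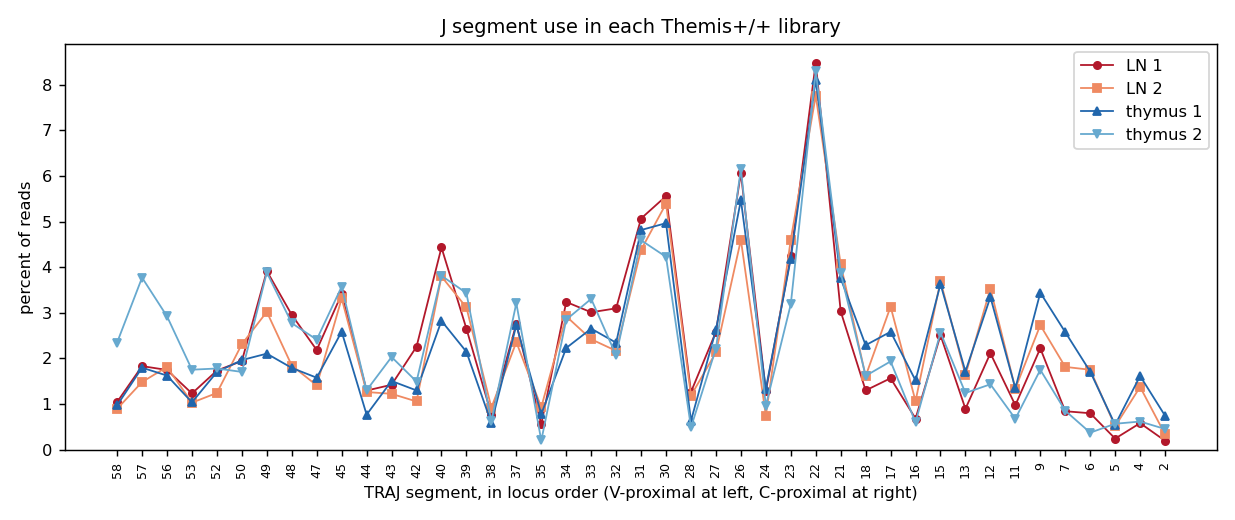
Single TRAJ segments in locus order, V-proximal at left (x axis), are plotted against their percent of reads (y axis), with 1 line for each of the 4 libraries. From TRAJ17 to TRAJ6 the lines of LN 2 and thymus 1 lie above those of LN 1 and thymus 2. TRAJ22 is the highest point of each line, at 7.76% to 8.48%.

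Pairing of V with J followed position in the locus in both tissues. Over the distinct sequences of a library, Spearman's rho between the GRCm38 positions of V and J was -0.30 (LN 1), -0.32 (LN 2), -0.28 (thymus 1) and -0.30 (thymus 2), so V segments nearer to the J array went with nearer J segments. TRAV17 to TRAV21, a run of V segments near the end that faces J, made up 2.95% to 4.56% of reads. TRAJ61 to TRAJ48 took 62.3%, 67.2%, 63.1% and 65.3% of the reads of those V segments but 14.6%, 11.97%, 11.5% and 18.8% of the reads of other V segments. The mean J number was 47.5, 48.7, 48.4 and 49.8 for TRAV17 to TRAV21 against 31.4, 28.7, 27.8 and 32.7 for other V segments. The rule of proximity was seen at like strength in each of the 4 libraries, and tissues overlapped in it. Positions were read from the first V segment listed for a sequence, so D and N copies that could not be told apart add error to the rho.

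**Figure D3:**
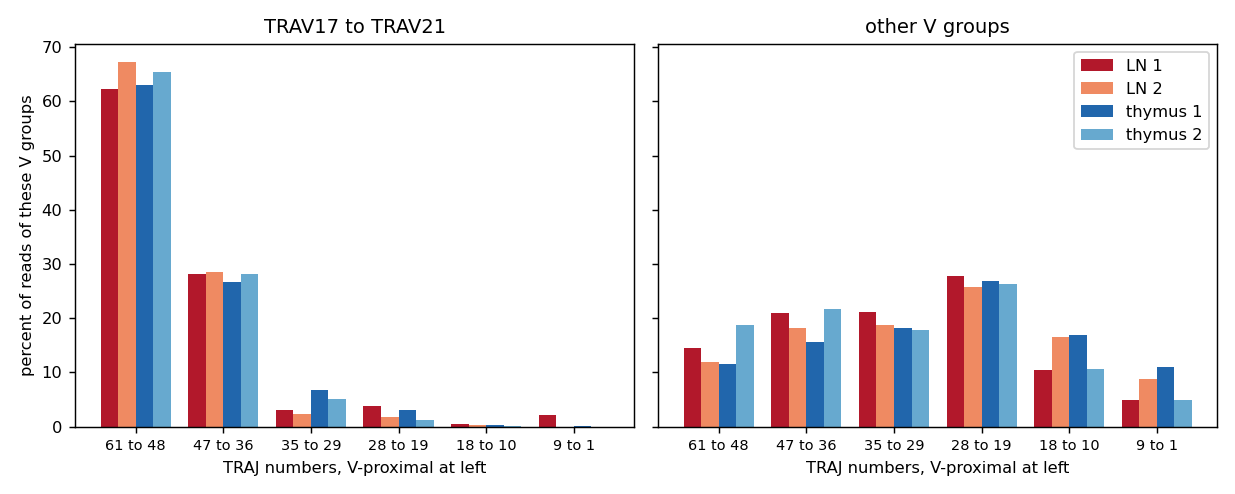
For each library, the percent of reads (y axis) is plotted over the 6 lists of J segments (x axis), separately for TRAV17 to TRAV21 and for other V segment groups. TRAV17 to TRAV21 peak in TRAJ61 to TRAJ48, at 62.3% to 67.2% of their reads, and other V groups take 11.5% to 18.8% there.

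Of single V-J pairs, the libraries held 1375 (LN 1), 1083 (LN 2), 1600 (thymus 1) and 1303 (thymus 2). The edgeR quasi-likelihood test with Benjamini-Hochberg adjustment called 0 of 1144 tested pairs (0%), with 35 at an unadjusted p under 0.05, and DESeq2 called 3, all higher in LN. Both LN libraries lay above both thymic ones for 137 pairs (12%) and below them for 227 (19.8%). LN 2 was the shallowest library and held the fewest pairs, and the part of depth in these 2 counts was not tested. The most abundant pairs, chosen here after their values were seen, were common to both tissues. TRAV12-2 with TRAJ22 took 0.673%, 0.703%, 0.750% and 0.683% of reads, and its tissues overlapped. TRAV14-2 with TRAJ22 (0.327%, 0.764%, 0.814% and 0.720%) and TRAV14-1 with TRAJ22 (1.20%, 0.0905%, 0.464% and 0.663%) overlapped too. Both differed widely between the LN libraries, and the V call of the TRAV14-TRAJ22 CDR3 shown first differed between libraries. TRAV12-3 with TRAJ23 took 0.680%, 0.837%, 0.666% and 0.434%, higher in both LN libraries. TRAV3-3 with TRAJ30, whose segments both had a higher share in LN, took 0.797%, 0.674%, 0.605% and 0.435%.

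Pairs with the largest differences were those with 0 reads in 1 tissue, and they rested on few sequences. TRAV7-6 with TRAJ42 had 65 and 77 reads in LN, from 4 and 2 sequences, and 0 in both thymic libraries. DESeq2 called this pair (DESeq2 adjusted p = 0.0235), along with TRAV6-6 with TRAJ11 (DESeq2 adjusted p = 0.0125) and TRAV5-1 with TRAJ23 (DESeq2 adjusted p = 0.0177), and edgeR called none of them. TRAV2 with TRAJ22 (105 and 13 reads), TRAV15-2 with TRAJ53 (14 and 62), TRAV5-1 with TRAJ40 (41 and 38) and TRAV4-2 with TRAJ16 (16 and 48) were likewise absent from thymic reads. In the other direction, TRDV1 with TRAJ34 had 70 reads in thymus 1 and 123 in thymus 2, and 0 in LN. TRAV13-3 with TRAJ56 (21 and 156), TRAV7-2 with TRAJ47 (122 and 67), TRAV12-1 with TRAJ6 (90 and 66) and TRAV10 with TRAJ56 (53 and 84) were seen in thymus alone. A count of 0 allows up to 3 reads in a library, and no fold is given for these pairs. Each pair with 0 reads in 1 tissue passed the filter of 10 reads in 2 libraries through the other tissue alone. Their place among the largest differences and the DESeq2 call on TRAV7-6 with TRAJ42 are therefore no separate support for a tissue difference. Reads of TRAV6-6 with TRAJ11 and of TRAV5-1 with TRAJ23 are not given here, and edgeR did not call these pairs. Their DESeq2 calls are therefore not taken as support for a tissue difference either.

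Mean CDR3 length was slightly higher in both LN libraries. By reads it was 40.787 bp (LN 1), 40.810 bp (LN 2), 40.660 bp (thymus 1) and 40.717 bp (thymus 2), or 40.8 ± 0.0164 bp in LN and 40.7 ± 0.0404 bp in thymus (SD, n = 2 each). The difference was 0.110 bp, and both LN libraries lay above both thymic ones (two-sided exact permutation p = 0.333, the smallest that 2 against 2 allows). Over sequences with a germline J end the difference was 0.0597 bp. In Themis-/- libraries of all CD8 cells, LN again lay above thymus, with means of 40.644 bp and 40.610 bp against 40.424 bp and 40.380 bp and a difference of 0.225 bp. Of the length classes, 42 bp was the most common in each library and held 31.8%, 33.1%, 30.6% and 29.7% of reads, higher in both LN libraries. Its log2 fold change was 0.16 (SE 0.062, unadjusted p = 0.0212, edgeR quasi-likelihood adjusted p = 0.297 by Benjamini-Hochberg). It was called without LN 1 (edgeR adjusted p = 0.00243) and without the filter on low counts (edgeR adjusted p = 0.0126). In the fit as planned, 0 of 14 classes passed (0%) and DESeq2 called 0. The 42 bp class was the only one with both LN libraries above the thymus (7.14%) and the 51 bp class the only one with both below (7.14%), at 1.37%, 1.35%, 1.56% and 1.66% of reads. CDR3s of 39 bp (22.4%, 23.96%, 23.7% and 25.7%), 45 bp (15.9% to 16.4%), 36 bp (14.0% to 15.3%) and 48 bp (5.54% to 6.00%) overlapped between tissues, as did those of 33 bp and 30 bp.

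N additions per read overlapped between tissues. Counted from the deposited V and J alignments, N bases averaged 1.97 (LN 1), 2.03 (LN 2), 2.02 (thymus 1) and 2.03 (thymus 2) per read, and 35.8%, 35.9%, 33.6% and 36.02% of reads had none. Those alignments tolerate mismatches, and in 24.2% to 26.2% of reads V and J overlapped. N bases were therefore counted a second way, as bases left after exact matches to the germline V and J ends, over sequences with a germline J end. That gave 2.73, 2.97, 2.83 and 2.86 N bases per read, and 16.4%, 15.5%, 15.0% and 15.6% of reads had none. Per distinct sequence the counts were 3.01 and 3.05 in LN against 3.07 and 3.16 in thymus, lower in both LN libraries, with a difference of -0.0847 (two-sided exact permutation p = 0.333). G and C made up 64.4%, 65.1%, 64.4% and 64.9% of N bases, the base preference terminal deoxynucleotidyl transferase is known for, and it did not separate the tissues. V ends had lost 2.41, 2.40, 2.31 and 2.43 bases per read. J starts had lost 2.89 and 2.93 bases in LN against 3.07 and 3.16 in thymus, so both LN libraries kept slightly more of J. That difference of -0.209 bases per read had a two-sided exact permutation p of 0.333.

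Residues between the conserved ends, with 4 residues left out at each end of the CDR3, were much alike in both tissues. The edgeR quasi-likelihood test with Benjamini-Hochberg adjustment called 0 of 20 residues (0%), 0 had an unadjusted p under 0.05, and DESeq2 called 0. Both LN libraries lay above both thymic ones for 3 residues (15%) and below them for 2 (10%). Glycine was the most common, at 19.96% (LN 1), 20.4% (LN 2), 20.5% (thymus 1) and 20.5% (thymus 2), and lay lower in LN by a narrow margin. Asparagine (16.7% to 17.4%), serine (13.0% to 14.0%) and alanine (8.82% to 9.43%) followed and overlapped. Tyrosine was higher in both LN libraries, with 8.43%, 8.35%, 8.16% and 7.85%, as were aspartate (5.26%, 5.68%, 5.25% and 5.26%) and proline (1.89%, 2.14%, 1.77% and 1.87%). Isoleucine was lower in both, with 0.448%, 0.334%, 0.528% and 0.455%.

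Cysteine, the rarest of the 20 residues in the centre of the loop, had the largest log2 fold change, of -1.86 (SE 1.20), and it came from 1 library. A central cysteine was carried by 0.0956% (LN 1), 0.115% (LN 2), 0.107% (thymus 1) and 0.652% (thymus 2) of reads. Thymus 2 stood apart, with 53 such sequences against 26 in thymus 1, 17 in LN 1 and 11 in LN 2. Without thymus 1 the residue was called as lower in LN (edgeR adjusted p = 0.0173), and that fit compared both LN libraries with thymus 2 alone. The other residues ranged from 0.144% (lysine, LN 2) to 7.49% (threonine, LN 1), and their tissues overlapped.

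Mean hydropathicity of the central residues on the Kyte-Doolittle scale was -1.277 (LN 1), -1.280 (LN 2), -1.238 (thymus 1) and -1.268 (thymus 2), lower in both LN libraries, with a difference of -0.0257 (two-sided exact permutation p = 0.333). Over sequences with a germline J end it was again lower in both, by -0.0339. By distinct sequences the difference was -0.0166 and over all CDR3 residues -0.0141. In both of these the tissues overlapped (two-sided exact permutation p = 0.667). Net charge per CDR3 was -0.376, -0.314, -0.332 and -0.336, and the thymic values lay between those of LN.

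Diversity overlapped between tissues, and the largest clonotypes were larger in LN at the first ranks. With each library thinned to 57455 reads, 10557 (LN 1), 5753 (LN 2), 13584 (thymus 1) and 8440 (thymus 2) distinct clonotypes remained. The exponential of the Shannon index, the number of equally large clonotypes that would give the same diversity, was 5974, 2700, 8196 and 4396. LN averaged 4337 ± 2315 and thymus 6296 ± 2687 (SD, n = 2 each), and LN 1 lay above thymus 2, so tissues overlapped (two-sided exact permutation p = 0.667). After the J ends were read as germline and identical sequences merged, the index fell to 3137, 1394, 4695 and 2372 in the same order of libraries.

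At the top of the ranking, LN lay above thymus. The first clonotype took 0.543% and 0.533% of LN reads against 0.3997% and 0.387% of thymic reads at equal depth (two-sided exact permutation p = 0.333). Over all reads, the clonotype at rank 2 took 0.524% and 0.526% in LN against 0.167% and 0.308% in thymus, and at rank 3 it took 0.249% and 0.461% against 0.145% and 0.246%. At rank 5 the tissues overlapped, with 0.138% and 0.406% against 0.127% and 0.223%. The 10 largest together took 2.27% (LN 1), 4.07% (LN 2), 1.61% (thymus 1) and 2.44% (thymus 2), and the 100 largest took 9.61%, 18.5%, 8.18% and 12.6%, and both sums overlapped between tissues. Clonotypes above 0.1% of reads numbered 25, 119, 17 and 60. LN 2 had the highest value of each of these sums and counts. Without LN 2, the share of the 100 largest differed by -0.793 percentage points between LN and thymus, and with all libraries it was 3.65 points higher.

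Sequences of the largest clonotypes are shown because they separate those private to a library from those that recur. In LN, 4 of the 5 largest by mean share carried N bases and were nearly confined to 1 library. Capitals mark bases matched to neither the germline V nor the germline J.
TRAV14-1 TRAJ31: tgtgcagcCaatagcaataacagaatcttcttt
TRAV16 TRAJ21: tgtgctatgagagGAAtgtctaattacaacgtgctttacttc
TRAV12-2 TRAJ34: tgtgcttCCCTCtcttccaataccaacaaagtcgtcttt
TRAV8-1 TRAJ45: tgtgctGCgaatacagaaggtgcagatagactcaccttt
TRAV12-3 TRAJ26: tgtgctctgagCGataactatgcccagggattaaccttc

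TRAV14-1 with TRAJ31 had 673 reads in LN 1 (0.536% of that library) and 0 in the other libraries. TRAV16 with TRAJ21 had 306 reads in LN 2 and 1 in LN 1, and TRAV12-2 with TRAJ34 (302 reads) and TRAV8-1 with TRAJ45 (265 reads) were seen in LN 2 alone. None of these 4 had a read in thymus. The fifth was the TRAV14-TRAJ22 sequence shown first, which also took places 1 and 3 among thymic clonotypes under its TRAV14-2 and TRAV14-1 calls. TRAV12-3 with TRAJ26, shown last above, had 380 reads in thymus 2 alone. The other large thymic clonotypes were again TRAJ22 joints, with TRAV6-7 (3 reads in thymus 1 and 242 in thymus 2) and TRAV6-5 (25 in LN 2 and 230 in thymus 2), and both were without an N base.

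Sharing of clonotypes, defined by CDR3 nucleotides with V group and J, was next compared between and within tissues. LN 1 shared 565 clonotypes with thymus 1 (4.48% of LN 1 and 3.39% of thymus 1) and 370 with thymus 2 (2.93% and 3.91%). LN 2 shared 242 with thymus 1 (4.21% and 1.45%) and 161 with thymus 2 (2.799% and 1.70%). Within a tissue, LN 1 and LN 2 shared 224 (1.78% and 3.89%) and the thymic libraries 398 (2.39% and 4.21%). Larger libraries shared more, so the counts were set against the number of possible pairs of clonotypes at equal reads. On that scale, libraries of different tissues shared 3.17 ± 0.307 per 1000000 possible pairs (SD over 4 pairs) and libraries of the same tissue 3.10 ± 0.243 (SD over 2 pairs). The difference of 0.0691 was smaller than either SD, although the pairs share libraries and are not independent. Its two-sided exact permutation p was 0.333, the smallest that 2 against 2 allows, so the test cannot decide whether tissues differed. The values of all 6 pairs lay between 2.796 and 3.55, and those of the same tissue lay within the range of the others.

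The V call limited that count, because the tables list each CDR3 nucleotide sequence once per library with 1 best V group. Of 2240 CDR3 nucleotide sequences found in at least 2 libraries, 942 (42.1%) had different V groups in different libraries, while J never differed. By CDR3 nucleotides alone, LN 1 shared 910 sequences with thymus 1 (7.22% of LN 1 and 5.46% of thymus 1) and 565 with thymus 2 (4.48% and 5.97%), and LN 2 shared 450 (7.82% and 2.70%) and 262 (4.55% and 2.77%). At equal reads these pairs shared 5.16 ± 0.132 per 1000000 and within-tissue pairs 5.01 ± 0.0378 (two-sided exact permutation p = 0.667), and each between-tissue value lay above both within-tissue values. By amino acids, LN and thymus shared 668 to 1854 CDR3s.

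**Figure D4:**
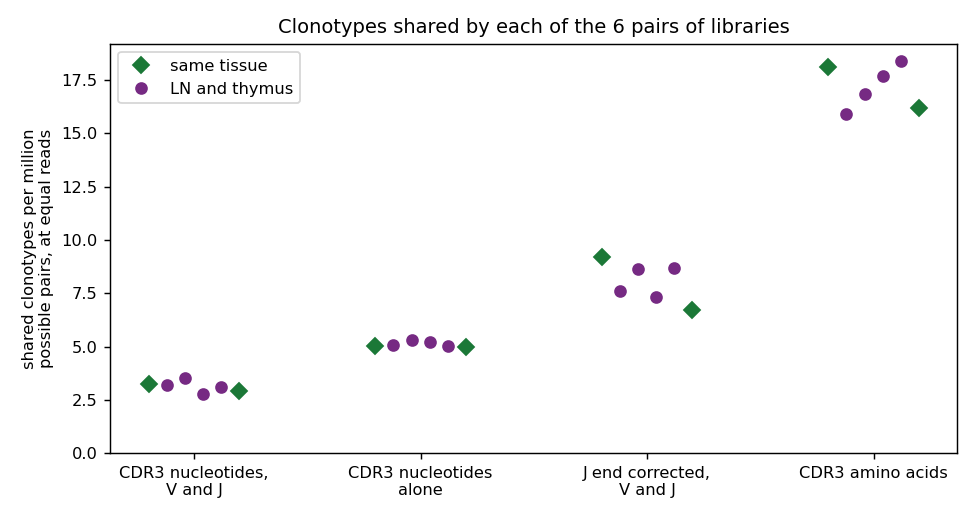
Clonotypes shared per 1000000 possible pairs at equal reads (y axis) are shown for 4 definitions of a clonotype (x axis), with 1 point for each of the 6 pairs of libraries. For CDR3 nucleotides alone the circles (LN and thymus), at 5.05 to 5.33, lie just above the diamonds (same tissue), at 4.98 and 5.04, while in the other definitions circles and diamonds overlap.

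Clonotypes found in both tissues had few N bases. Of 42786 clonotypes, 1079 (2.52%) were seen in LN and thymus, and they took 10.1% (LN 1), 10.6% (LN 2), 7.91% (thymus 1) and 7.27% (thymus 2) of reads. Among those with a germline J end, clonotypes in both tissues had a mean of 1.31 N bases and 40.0% had none. Clonotypes of LN only had 3.21 N bases and 10.7% had none, and clonotypes of thymus only had 3.24 and 10.4%. Shared clonotypes were also larger, with a median of 8 reads in LN 1 and LN 2 against 5 and 4 for clonotypes not shared, and 7 and 7.5 reads in thymus 1 and thymus 2 against 4 and 5. Their larger size bears on their detection in a second library, and the part of size in the sharing was not tested. The contrast with N bases was the same in both tissues, since in each library the clonotypes it shared had 1.21 to 1.32 N bases and those not shared 3.17 to 3.30.

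The number of N bases also fell with the number of libraries that held a CDR3. Of 41785 distinct CDR3 nucleotide sequences, 1837 were in 2 libraries, 344 in 3 and 59 in 4. Over those with a germline J end, the mean was 3.36 N bases in 1 library (18655 sequences), 1.47 in 2 (1138), 0.957 in 3 (230) and 0.390 in 4 (41). The share without N bases was 8.61%, 35.1%, 52.6% and 80.5%. TRAJ22 was used by 12 of the 59 sequences in all libraries, and 20 J segments were used among them. Of the 59, 41 had a germline J end, so variants of the J end such as the T38G form count as sequences of their own.

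**Figure D5:**
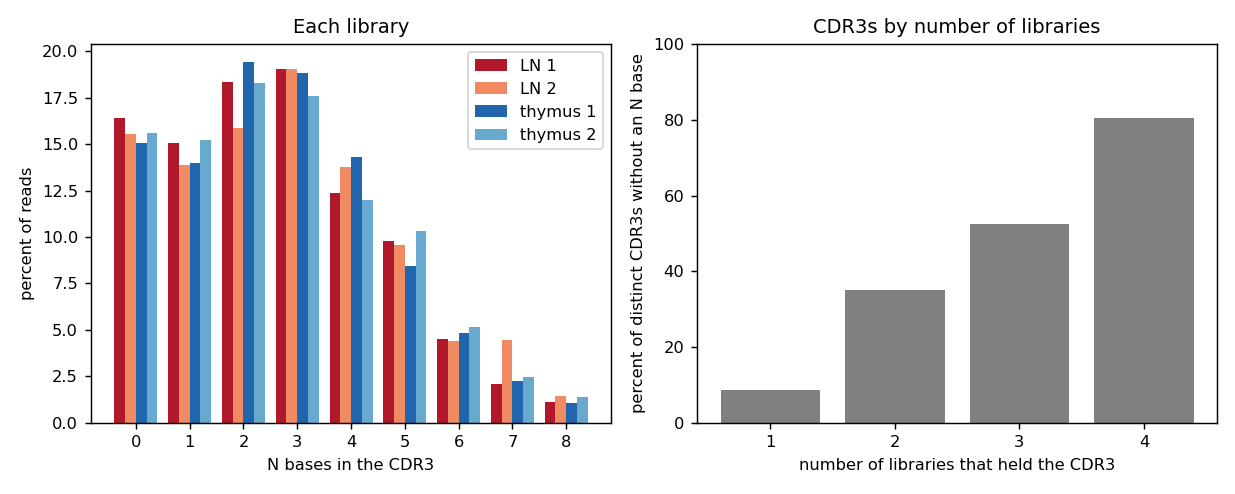
On the left, the percent of reads (y axis) is plotted by number of N bases in the CDR3 (x axis) for the 4 libraries. On the right, the percent of distinct CDR3s without an N base (y axis) is plotted by the number of libraries that held them (x axis), over sequences with a germline J end, and it goes from 8.61% for 1 library to 80.5% for 4.

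The next most abundant CDR3s in all 4 libraries are printed to show how different V ends meet the same J starts, with N bases in capitals.
TRAV3 TRAJ22: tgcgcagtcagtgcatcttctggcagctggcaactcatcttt
TRAV7 or TRAV14 TRAJ22: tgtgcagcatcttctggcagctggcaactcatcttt
TRAV6 or TRAV12 TRAJ22: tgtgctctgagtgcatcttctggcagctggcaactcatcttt
TRAV12-2 TRAJ30: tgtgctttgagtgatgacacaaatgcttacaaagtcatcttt
TRAV3-3 TRAJ30: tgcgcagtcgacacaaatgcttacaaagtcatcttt
TRAV16 TRAJ45: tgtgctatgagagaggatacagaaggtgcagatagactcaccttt
TRAV6-7 TRAJ49: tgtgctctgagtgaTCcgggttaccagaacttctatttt
TRAV12-3 TRAJ23: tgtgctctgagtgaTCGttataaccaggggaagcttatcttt

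TRAV3 with TRAJ22 had 92, 79, 143 and 63 reads (LN 1, LN 2, thymus 1, thymus 2), and the 36 bp sequence, which the tables assign to TRAV7 or TRAV14 groups, had 61, 74, 58 and 77. In the 36 bp sequence, 2 bases match both the V and the J end. Their shares overlapped between tissues. Others were found in each library but were large in only some of them. The sequence of TRAV6 or TRAV12 with TRAJ22 had 7, 25, 12 and 230 reads, TRAV6-7 with TRAJ49 had 6, 125, 3 and 2, and TRAV3-3 with TRAJ30 had 3, 71, 109 and 3. TRAV12-2 with TRAJ30 had 10, 77, 27 and 60 reads and TRAV16 with TRAJ45 had 53, 10, 89 and 68. TRAV12-3 with TRAJ23 held 3 N bases and still recurred, with 62, 43, 16 and 75 reads. In percent of reads, TRAV6-7 with TRAJ49 lay higher in both LN libraries (0.00478% and 0.218% against 0.00240% and 0.00203%), a difference that LN 2 made, and TRAV16 with TRAJ45 lay lower in both (0.0422% and 0.0174% against 0.0713% and 0.0691%). The other sequences printed here overlapped between tissues.

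The LN-thymus difference was set beside that of Themis-/- libraries of all CD8 cells, to ask whether wild-type cells differed in it. In a fit over 8 libraries, the interaction of tissue and genotype passed the edgeR quasi-likelihood test with Benjamini-Hochberg adjustment for 0 of 52 V groups (0%, 4 at an unadjusted p under 0.05) and 0 of 44 J segments (0%, 1 at an unadjusted p under 0.05). DESeq2 called 1 V group, TRDV2-1 (DESeq2 adjusted p = 0.0160), and 0 J segments. TRDV2-1 also had the smallest edgeR p, with an interaction of 5.46 on the log2 scale (SE 1.86, unadjusted p = 0.00369, edgeR quasi-likelihood adjusted p = 0.192 by Benjamini-Hochberg). It held 0.350% and 0.409% of wild-type LN reads against 0.180% and 0.331% in thymus, while in Themis-/- cells it held 0% and 0.00495% in LN and 0.0643% and 0.0967% in thymus. With Themis-/- LN shares at or near 0%, the size of that interaction is not a measured ratio. TRAV5-4 followed (log2 interaction -1.55, edgeR adjusted p = 0.480), and among J segments TRAJ58 had the smallest p (log2 interaction -1.81, edgeR adjusted p = 0.970).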

How the data were processed

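The members are the unsorted Themis+/+ libraries, 2 of LN and 2 of SP CD8 thymocytes; members and lists were chosen with earlier results of these data known. The authors extracted clones with MiXCR (version not given in the sources used here) from MiSeq reads, and the submitters' processing notes name CASAVA 1.4 and the build mm9. The authors deposited a read count per CDR3 nucleotide sequence, without normalization, and its fraction of the library's reads, which equals the count over the library total. Between 15.1% and 16.9% of clone numbers are missing from the tables, and those clones were not analysed here. Libraries of sorted Vα3.2 cells were not used here, and Themis-/- libraries entered only the interaction fit and the values beside it.

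Reads per V group, J, V-J pair, length class and central residue were compared in R 4.3.3 by the quasi-likelihood test of edgeR 4.0.16 with TMM scaling, for features that reached 10 reads in 2 or more libraries, at a Benjamini-Hochberg adjusted p of 0.05, with DESeq2 1.42.0 as an alternative, and the code was tested on simulated data. Residues of a read are not independent counts. Single values were compared with two-sided exact permutation tests. Libraries were thinned to 57455 reads in 20 draws. Germline ends and positions came from GENCODE M21 on GRCm38. Python 3.11.15, numpy 2.4.6, pandas 2.3.3, scipy 1.17.1, matplotlib 3.10.9 and Biopython 1.88 were used.

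Named features follow a rule: up to 5 higher and 5 lower by adjusted p, or, where none passed, the largest log2 fold changes among features whose tissues do not overlap; the 5 V groups and 5 J segments of highest share; length classes of at least 1% of reads; the 20 residues; and the 5 largest clonotypes of LN, of thymus and of those in all 4 libraries. CDR3s ranked without their V call and single pairs of highest share were chosen after their values were seen. Alternatives were no filter, distinct sequences in place of reads, no single reads, D and N copies apart, all 8 libraries in the fit, a replicate block and leaving out each library. The germline J end, the J-end correction, exact germline matches, CDR3 nucleotides alone and a crossed block were added after the data had been seen.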

Additional observations from a re-analysis of the deposited data

Results flagged for a closer look

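For 9 of 112 values compared in both genotypes, both wild-type LN libraries lay on 1 side of both thymic libraries and both Themis-/- LN libraries lay on the opposite side of theirs. For 13 of the 112 they lay on the same side, among them TRAJ28, TRAJ30, TRAV11, TRAV21 and mean CDR3 length. Part of the 112 were named because their wild-type tissues did not overlap, so the counts of 9 and 13 do not measure agreement between genotypes. Neither count was compared with the number that chance would give. The 112 values hold some segments both singly and in their family, so TRAV5-4 and TRAV5 share reads, as do TRDV2-1 and TRDV2. Differences below are percentage points of reads, LN minus thymus, as means of 2 libraries. TRAV6-4 differed by 0.126 in wild type and by -0.161 in Themis-/-, and TRDV2-1 by 0.124 and -0.0780. TRAV5-4 differed by -0.741 and 0.550, and its whole family TRAV5 by -0.835 and 0.326. The family TRDV2 differed by 0.175 and -0.137. Among J segments, TRAJ34 differed by 0.541 and -0.403 and TRAJ43 by -0.445 and 0.698. The pair TRAV4-2 with TRAJ16 differed by 0.0481 and -0.0400. Isoleucine differed by -0.101 and 0.0899 percentage points of central residues. The V groups and J segments have an interaction test, which none of them passed in edgeR and only TRDV2-1 passed in DESeq2. For both families, the pair and the residue the difference between genotypes was not tested.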

How the results depend on the processing

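Counts of called features stayed at 0 for V groups, J segments, V-J pairs, length classes and residues under distinct sequences, no single reads, the germline J end, the replicate block (0 calls in each of these comparisons and in the interaction) and the crossed block. The labels do not say that a library number pairs the tissues, and same-numbered libraries did not deviate together: r was -0.058 over 52 V groups, -0.38 over 44 J segments, -0.39 over 14 lengths and -0.055 over 20 residues. DESeq2 called 3 V-J pairs and 1 V interaction, and no filter called 1 length class. Leaving out 1 library gave 0 to 2 V groups, 0 to 1 length classes and 0 to 1 residues. The difference in N bases per read, -0.0241, became 0.00282 by exact germline match and ran from -0.0579 to 0.00976 with 1 library left out. With 1 library left out, the share without N ran from -0.159 to 2.24 percentage points, net charge from -0.0422 to 0.0194 and the share of the 100 largest clonotypes from -0.793 to 8.10 points. Mean sharing between tissues, 334.5 clonotypes, was 546.75 by CDR3 nucleotides alone, 1188.75 by amino acids and 201.5 to 467.5 with 1 library left out. Mean CDR3 length differed by 0.110 bp, and by 0.0597 bp over germline J ends. The rho of V and J positions was -0.27 by reads and -0.30 by sequences. Over the 70 named features, 734 of 797 alternative fits kept the sign of the change and 63 did not, and the causes were not tested. Named V groups, J segments and pairs were in part chosen because their tissues did not overlap. Leaving out 1 library can then hardly change their sign, so the count is no measure of robustness. Few of these fits gave a call at all, and 0 calls reversed. The shallowest library limits what the comparison can show to features well above 3 reads in 57455.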
